A study of Saccharomyces cerevisiae with 4 samples.

Results

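The regions described here were ATAC-seq peaks in divergent promoters of budding yeast, the gaps between a left gene on the minus strand and a right gene on the plus strand. ATAC-seq maps open chromatin with the transposase Tn5, which cuts and tags accessible DNA. A peak belonged to the set when its summit lay in such a gap between neighbouring protein-coding genes on chromosomes II, VII, IX, X, XIII, XV or XVI and not in a tRNA gene. These 7 chromosomes held 786 divergent gaps, and 1614 of the 9663 peaks in the 4 deposited lists had their summit there. Both groups were labelled as strain BY4741, grown at 30 °C to mid-log phase. Cells with SWC4 deleted (swc4Δ, 2 libraries) were set against wild-type cells (WT, 2 libraries). No label said that replicates were separate cultures, so the spread between the libraries of a genotype may be technical.

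In a divergent promoter the transcription start sites of 2 genes face away from each other across a shared stretch of DNA, which in yeast is usually kept free of nucleosomes by general regulatory factors, chromatin remodellers and stiff A-rich sequence. Swc4 is a subunit of both the SWR1 complex, which replaces histone H2A by the variant Htz1 in the nucleosomes that flank such open stretches, and the NuA4 histone acetyltransferase. Yeast gene pairs with a divergent promoter include classic co-regulated pairs such as the core histone genes and GAL1 with GAL10.

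The lists held 2826 and 2368 peaks in swc4Δ and 2354 and 2115 in WT, at background pileups of 24.4 and 25.5 fragments in swc4Δ and 22.6 and 24.0 in WT. On the 7 chromosomes they held 1249 and 882 peaks in swc4Δ and 1180 and 1065 in WT, where the genotypes overlapped. SWC4 (YGR002C, chromosome VII, 498476 to 499906, sacCer3) is itself a member of a divergent pair, SWC4/CUL3. Its gap of 225 bp, the gene body and the 500 bp upstream held no peak in any library, so the lists could not check the deletion. Genes that mark the mating types went against the strain label of the WT libraries. BY4741 is known as a strain of mating type a. The 500 bp upstream of 6 a-specific genes carried a peak at 6 and 5 genes in the swc4Δ libraries and at 0 and 0 in the WT libraries. Upstream of 4 α-specific genes a peak lay at 2 and 1 genes in swc4Δ and at 4 and 4 in WT. A difference in mating type cannot be told apart from the deletion in any comparison below.

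The first question was how many divergent promoters were open. A summit lay in 448 and 339 of the 786 divergent gaps in the swc4Δ libraries, or 57.0% and 43.1%, and in 396 and 325 in the WT libraries, or 50.4% and 41.3%. The share averaged 50.1% ± 9.81 in swc4Δ and 45.9% ± 6.39 in WT (SD, n = 2 each). The genotypes overlapped, and the difference of 4.20 points gave p = 0.667 (exact permutation test, two-sided; the smallest p that 2 against 2 libraries allow is 0.333). It was -2.74 points without swc4Δ replicate 1 and -0.318 points without WT replicate 2, so its direction rests on single libraries. The member peaks numbered 490 and 363 in swc4Δ and 420 and 341 in WT (exact permutation p = 0.667), and without swc4Δ replicate 1 the difference of 46 peaks became -17.5.

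The same divergent promoters were open in most libraries. A summit was found in all 4 libraries in 279 gaps (35.5%) and in no library in 298 gaps (37.9%). Replicate 1 held more of these gaps than replicate 2 in both genotypes. In 33 gaps a summit lay in replicate 1 of both genotypes and in replicate 2 of neither, and the opposite was seen in 0 gaps. Of the gaps open in at least 1 library of a pair, the share open in both (the Jaccard index) was 0.718 for the swc4Δ pair, 0.763 for the WT pair and 0.769 for swc4Δ replicate 1 with WT replicate 1. For the remaining pairs, which all cross genotypes, it was 0.695 to 0.738. The pairs within a genotype thus fell inside the range of the pairs across genotypes. On each of the 7 chromosomes the genotypes overlapped in the share of divergent gaps with a summit. Shares there ran between 52.5% and 65.5% in swc4Δ replicate 1, 38.5% and 50.5% in swc4Δ replicate 2, 45.8% and 55.2% in WT replicate 1 and 36.9% and 48.4% in WT replicate 2.

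Divergent gaps held summits more often than tandem gaps, where both genes run the same way and only 1 of them has its promoter in the gap. Tandem gaps (1397 on these chromosomes) held a summit in 36.4% and 23.3% of cases in swc4Δ and 30.4% and 23.3% in WT. Convergent gaps (779), which lie between 2 gene ends, held one in 3.85% and 2.44% in swc4Δ and 3.72% and 1.93% in WT. The divergent share exceeded the tandem share by 20.6 and 19.8 points in swc4Δ and by 20.0 and 18.1 points in WT. It was higher in 4 of 4 libraries, with a mean of 19.6 points (exact sign-flip permutation p = 0.125, two-sided, the smallest 4 libraries allow). Divergent gaps were longer, with a median of 511 bp against 389 bp for tandem gaps, and with the tandem gaps weighted to the lengths of divergent ones the excess was 13.8 points. The genotype difference in this excess was 1.16 points (exact permutation p = 0.667). It was 0.219 points without WT replicate 2, 0.772 points without swc4Δ replicate 1 and 2.09 points without WT replicate 1.

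**Figure D1:**
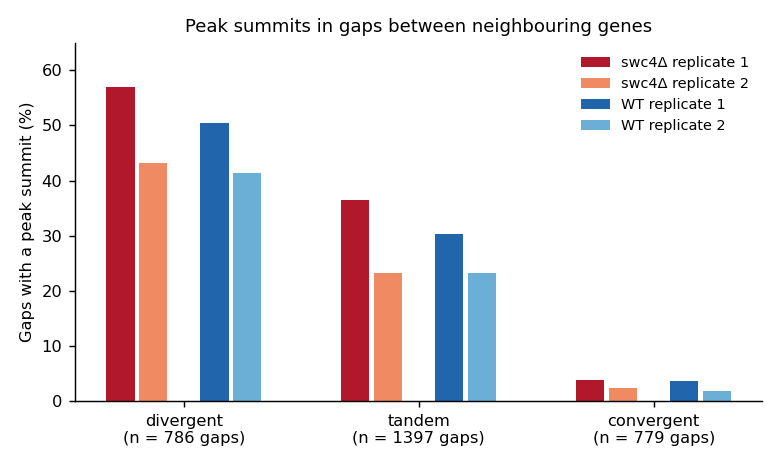
Share of gaps with at least 1 peak summit (y axis, %) for divergent, tandem and convergent gaps on the 7 chromosomes; each bar is 1 library. Divergent gaps stand at 41.3% to 57.0%, tandem gaps at 23.3% to 36.4%, and replicate 1 is above replicate 2 in both genotypes.

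The length of the gap went with the chance of a summit. Of 60 divergent gaps of up to 200 bp, between 1.67% and 5.00% held a summit across the 4 libraries, and 54 held none in any library. In gaps over 200 and up to 400 bp the range was 17.0% to 37.3%, and in gaps of 400 to 600 bp it was 47.6% to 64.6%. The highest shares, 81.5% to 92.3%, were seen in the 65 gaps of 1200 to 2000 bp, and the 32 longer ones fell back to between 62.5% and 81.3%. Tandem gaps stood above divergent ones up to 200 bp, at 7.81% to 14.8%. In every longer bin the divergent share was the higher within each of the 4 libraries. At 200 to 400 bp (11.6% to 25.1%) and 800 to 1200 bp (51.7% to 62.6%) the tandem range across libraries still overlapped the divergent one. The same held over 2000 bp, where tandem gaps stood at 48.8% to 70.7%. At 400 to 600 bp they stood at 20.0% to 37.4%, below all divergent values of that length.

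**Figure D2:**
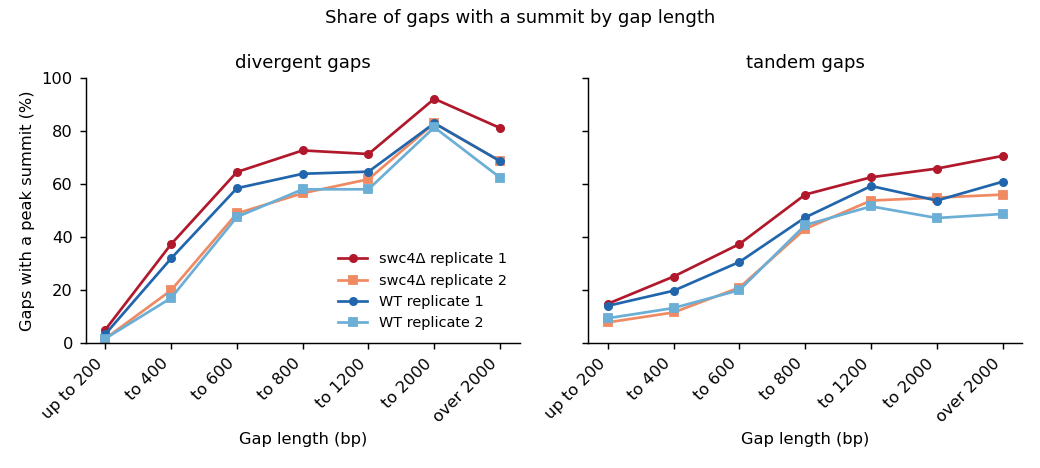
Share of gaps with a summit (y axis, %) by gap length in bp (x axis, bins) for divergent gaps (left) and tandem gaps (right); each line is 1 library. In divergent gaps the share climbs to between 81.5% and 92.3% at 1200 to 2000 bp and drops in the longest bin.

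Among the gaps with no summit in any library, the longest lay by repeated gene families. The 7420 bp between YGR038C-B and YGR039W on chromosome VII (567468 to 574887) had none. The gaps PAU1/VTH2 on X and PAU14/VTH1 on IX, both 2336 bp long, lie near chromosome ends, between seripauperin and vacuolar sorting receptor genes. THI11/HXT16 on X (2843 bp), beside a thiamine synthesis gene and a hexose transporter gene, and AAD15/YOL164W-A on XV (2051 bp) completed the 5 longest. Genes of these families share sequence, and the handling of reads with several matches is not given in the sources used here.

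The width of a peak is the length of the called region. Member peaks had median widths of 449.5 and 461 bp in swc4Δ and 482 and 478 bp in WT, a mean of 455.2 ± 8.13 bp in swc4Δ and 480 ± 2.83 bp in WT (SD, n = 2 each). The genotypes did not overlap, swc4Δ being the lower, and the difference of -24.8 bp gave an exact permutation p of 0.333. No list held a peak under 200 bp. The widest member peak measured 2875 and 2357 bp in swc4Δ and 3553 and 3491 bp in WT. The lower median was not seen at gaps that all libraries shared. In the 239 divergent gaps with exactly 1 summit in each library the median width was 619 and 529 bp in swc4Δ and 603 and 525 bp in WT, so the genotypes overlapped. Over all 16 chromosomes the difference in member width turned to 29.8 bp, and with equal numbers of peaks per list it was 0.250 bp.

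At those 239 gaps the single peak was wider in both swc4Δ libraries than in both WT libraries in 48 gaps (20.1%) and narrower in 38 (15.9%). Over all 457 gaps of any orientation with 1 summit in every library, the same calls were made in 22.5% and 14.0% of gaps, so the divergent share was near the background in both directions. Widths also differed within a genotype, where swc4Δ replicate 1 had the wider peak than swc4Δ replicate 2 in 187 of the 239 gaps and WT replicate 1 than WT replicate 2 in 157.

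Among gaps open in all libraries the widest peaks lay at 5 gaps, 3 of them on chromosome X. The gap SOD1/ADO1 on chromosome X (623015 to 623580), between the genes of copper-zinc superoxide dismutase and adenosine kinase, had a strongest peak 1906 and 1756 bp wide in swc4Δ and 3553 and 3491 bp wide in WT. At RSM7/YJR115W on the same chromosome (638976 to 639941), RSM7 coding for a mitochondrial ribosomal protein, the widths were 1711 and 1769 bp in swc4Δ and 3280 and 2395 bp in WT. PUP2/ENO1 on VII (999141 to 1000926), a proteasome subunit gene and an enolase gene, had widths of 1436 and 1316 bp in swc4Δ and 2259 and 2366 bp in WT. At these 3 gaps both swc4Δ libraries were narrower than both WT libraries. PIR5/HSP150 on X, a pair of cell wall protein genes, had 2875 and 2357 bp in swc4Δ and 2718 and 2535 bp in WT, which overlap. MBF1/BUD7 on XV, a transcriptional coactivator gene and a gene of secretory cargo sorting, had 2199 and 1564 bp in swc4Δ and 1558 and 1778 bp in WT, also overlapping.

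Among the narrowest, HIS6/FAF1 on IX, HIS6 serving histidine synthesis, had widths of 231 and 235 bp in swc4Δ and 202 and 202 bp in WT. SKI7/RTS2 on XV had 220 and 210 bp in swc4Δ and 255 and 200 bp in WT. CAT8/GPI12, SGS1/SPG5 and RAD2/TNA1 were the others. SGS1 codes for a RecQ helicase and RAD2 for a nuclease of nucleotide excision repair.

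The summit is the highest point of a peak, and its distance to each start codon was taken in bp. The median distance to the nearer start codon was 200.5 and 224 bp in swc4Δ and 193 and 220 bp in WT, and to the farther one 489 and 518 bp in swc4Δ and 479 and 520 bp in WT. The nearer distance averaged 212.2 ± 16.6 bp in swc4Δ and 206.5 ± 19.1 bp in WT (SD, n = 2 each), and the difference of 5.75 bp gave an exact permutation p of 0.667. The sign of that difference turned in 4 of the settings tried, to -6 bp without swc4Δ replicate 2 and -7.75 bp without WT replicate 1. The left gene's start codon was the nearer one for 51.6% and 47.4% of member peaks in swc4Δ and 48.3% and 49.0% in WT. Summits under 100 bp from a start codon made up 10.0% and 9.37% in swc4Δ and 12.1% and 10.6% in WT, and those at 100 to 300 bp 62.4% and 54.3% in swc4Δ and 57.4% and 55.1% in WT.

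The summit did not keep a fixed distance from the nearer gene as gaps grew. Its median distance to the nearer start codon was 112 to 120 bp across libraries in gaps of 200 to 400 bp, 165 to 178.5 bp at 400 to 600 bp and 371 to 439 bp at 1200 to 2000 bp. The distances to both start codons together make up the gap, so in short gaps the nearer one was capped by the gap length. In the 239 gaps with a single summit in each library, the nearer start codon lay at a median of 35.6% and 35.3% of the way across the gap in swc4Δ and 34.7% and 34.4% in WT. Between libraries these summits moved little: the median shift was 18 bp between the swc4Δ libraries, 15 bp between the WT libraries and 16 to 22 bp between genotypes. The genotypes' summits stood at least 20 bp apart without overlap in 22 of the 239 gaps (9.21%), against 9.41% of the 457 gaps of any orientation, so the divergent share was at the background.

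**Figure D3:**
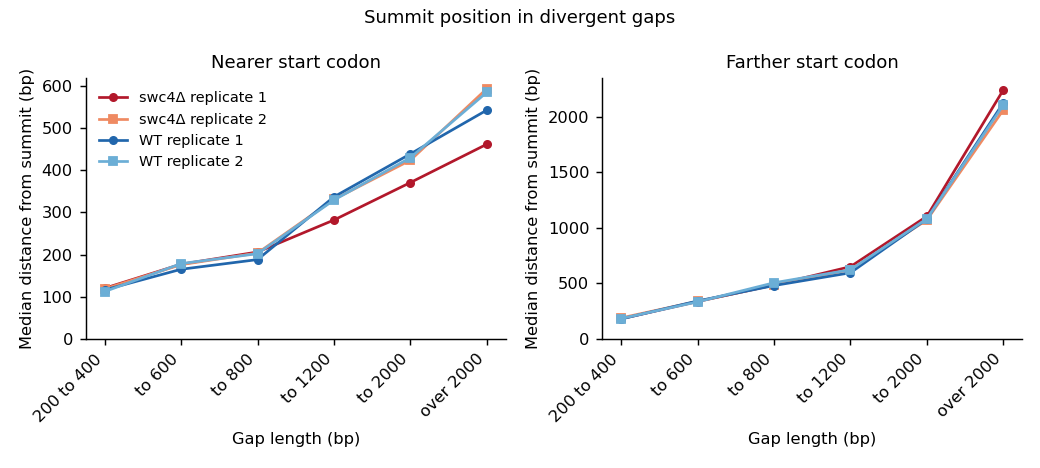
Median distance in bp from the summit of member peaks to the nearer (left) and farther (right) start codon, by length of the divergent gap in bp; each line is 1 library. In gaps of 200 to 400 bp the medians to the nearer start codon lie at 112 to 120 bp, and both distances grow with the gap. Both distances together make up the gap, so the nearer is capped by its length and the farther must grow with it.

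Peaks often reached past the gap into a gene. In swc4Δ 49.4% and 58.4% of member peaks covered neither start codon, against 46.9% and 53.4% in WT. A single start codon was covered by 38.8% and 31.7% in swc4Δ and 40.2% and 38.4% in WT, and both by 11.8% and 9.92% in swc4Δ and 12.9% and 8.21% in WT. The genotypes overlapped in all 3 shares.

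Most open divergent gaps held 1 summit. Among tandem gaps 2 or more summits were held by 19 and 13 in swc4Δ and by 13 and 8 in WT, where the genotypes met at 13. A divergent gap held 2 or more in 38 and 23 cases in swc4Δ and 22 and 16 in WT. The genotypes thus did not overlap, by 1 gap (no test). Gaps with exactly 2 were long, with a median length of 1328 and 1412 bp in swc4Δ and 1551 and 1554 bp in WT, against 633.5 and 686 bp in swc4Δ and 646 and 688 bp in WT for gaps with 1. In these the left summit lay a median of 228.5 and 309.5 bp in swc4Δ, and 282 and 308.5 bp in WT, from the left start codon, and the right summit 246.5 and 239 bp in swc4Δ, and 306 and 369.5 bp in WT, from the right one.

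In 8 gaps every library had 2 or more summits. VOA1/CLB1 on VII, 3849 bp long, lies beside a B-type cyclin gene and has 2 tRNA genes inside. It held 4 and 3 summits in swc4Δ and 4 and 2 in WT. IME1/RPL43B on X (605652 to 608304) joins the master regulator of meiosis to a ribosomal protein gene and contains the noncoding RNA IRT1. It held 2 summits in each library, and the strongest lay 226 and 216 bp from the RPL43B start codon in swc4Δ and 217 and 211 bp in WT, so the stronger opening was on the ribosomal side in all 4. SEC59/BUD22 on XIII, with a cluster of snoRNA genes from SNR72 to SNR78 inside, also held 2 in each. There the strongest summit lay 211 and 207 bp from the SEC59 start codon in swc4Δ, while in WT it lay 167 and 137 bp from that of BUD22. TIR2/AUS1, UBC4/TEC1 and TDH2/MET3, the last a glyceraldehyde-3-phosphate dehydrogenase gene beside a sulfate assimilation gene, were the other long ones.

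The deposited fold over background is the authors' own value for each peak, and it serves here for description and for ranks inside a single list. Member peaks had median folds of 2.96 and 2.64 in swc4Δ and 2.71 and 2.64 in WT, while all peaks of the same lists had 2.72 and 2.38 in swc4Δ and 2.50 and 2.28 in WT. Folds ran up to 6.94 and 5.28 in swc4Δ and 5.30 and 5.04 in WT. One step of the fold scale stood for 1 fragment, so member summits rested on median pileups of 74 and 69 fragments in swc4Δ and 63 and 65 in WT. The median fold was highest in swc4Δ replicate 1, and folds are set side by side below with no test.

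Within their lists member peaks ranked above the middle, at a median percentile of 57.9 and 61.7 in swc4Δ and 60.1 and 67.0 in WT. Tandem peaks stood at 48.5 and 57.3 in swc4Δ and 54.3 and 55.1 in WT, so divergent peaks ranked higher in 4 of 4 libraries, by 7.83 points on average (exact sign-flip permutation p = 0.125). At matched length this order did not hold throughout. Tandem peaks ranked higher in 3 of 4 libraries at 400 to 600 bp and at 600 to 800 bp, where the median percentiles were 63.9 to 68.9 for divergent and 66.0 to 73.5 for tandem peaks. At 800 to 1200 bp divergent peaks stood at 70.4 to 82.0 and tandem peaks at 62.2 to 68.8. Over gaps of 200 to 800 bp the excess was 4.22 points (exact sign-flip permutation p = 0.25). Divergent peaks were also wider than tandem ones in 4 of 4 libraries, by 70.5 and 71 bp in swc4Δ and 74 and 75 bp in WT (exact sign-flip permutation p = 0.125, the smallest possible). In gaps of 400 to 600 bp the medians were 430.5 to 476 bp for divergent and 352.5 to 412 bp for tandem gaps. In gaps of 200 to 400 bp, the most numerous, the ranges overlapped, at 270.5 to 346 bp for divergent and 296 to 355 bp for tandem gaps, and tandem peaks were the wider in 3 of 4 libraries.

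The divergent gap that ranked highest lay between the uncharacterised genes YIL055C and YIL054W on IX (253926 to 254542), with folds of 6.94 and 5.28 in swc4Δ and 5.13 and 4.96 in WT. MBF1/BUD7 on XV (877686 to 878434) had 6.66 and 5.28 in swc4Δ and 5.21 and 5.04 in WT. Both stood at or above the 98.0 percentile in every list. TYE7, a bHLH activator of glycolytic genes, shares a gap of 3758 bp with the DNA repair gene REV1 (folds 6.70 and 5.28 in swc4Δ, 4.74 and 5.00 in WT). SOK2, a repressor of pseudohyphal growth and meiosis, faces SPO20 across 1895 bp (6.74 and 4.76 in swc4Δ, 4.91 and 4.80 in WT). XBP1, a stress-induced repressor, faces SGA1 (6.15 and 4.49 in swc4Δ, 4.79 and 4.76 in WT). SKS1/RMI1, RPL33B/IRC13, YBL029C-A/YBL029W, YGR050C/FMP48 and YPR063C/YPR064W made up the rest of the 10 highest, with folds of 4.20 to 6.70 in all. At SKS1/RMI1 the summit sat at the centre of a 1333 bp gap, 657 and 667 bp from the SKS1 start codon in swc4Δ and 660 and 659 bp in WT.

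The genotype question was which divergent promoters were open in the libraries of 1 genotype only. A gap was called gained when both swc4Δ libraries but no WT library had a summit in it, and lost in the reverse case. Of the 786 divergent gaps 20 were gained (2.54%) and 5 were lost (0.636%). Over all 2962 gaps of any orientation on these chromosomes 1.82% were gained and 0.506% lost. Of gaps with a summit in both libraries of a genotype, 5.52% of the 362 divergent ones were gained and 1.38% lost, against 7.26% and 2.02% of all 744. The divergent shares were thus near the background on either count. With 1 library left out the rule asks for fewer libraries, so a count can only stay or rise. The gained count was then 71 without swc4Δ replicate 2 and 47 without WT replicate 1. The lost count was 33 without swc4Δ replicate 1, 27 without WT replicate 2, 8 without WT replicate 1 and 14 with equal numbers of peaks per list.

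Gained peaks were narrow and of low rank. Their median width was 305 and 295.5 bp in the swc4Δ libraries, and the folds had medians of 2.60 and 2.08. At gaps open in all 4 libraries the strongest peak had median folds of 3.90 and 2.91 and median widths of 636 and 530 bp in the swc4Δ libraries. Both sets were chosen by presence in the lists, so this contrast is partly set by the calls and is description only. IMA5/HXT8 on X (26087 to 26886), an isomaltase gene and a hexose transporter gene near the chromosome end, ranked first, with folds of 3.90 and 2.79 in swc4Δ and no WT summit. RPN8/GPN2 on XV (816932 to 817291), where RPN8 codes for a proteasome lid subunit, had 3.31 and 2.23 in swc4Δ, and its summits lay 184 and 198 bp from the RPN8 start codon, near the middle of the 360 bp gap. RRT14/STH1 on IX, beside the gene of the RSC remodeller's ATPase, had 3.11 and 2.00 in swc4Δ, with both summits 165 bp from the RRT14 start codon. RET1/PTP2 on XV, the gene of a large RNA polymerase III subunit beside a tyrosine phosphatase gene, had 2.84 and 2.3 in swc4Δ.

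The summits of the swc4Δ libraries did not always coincide in a gained gap. NDJ1/YOL103W-A on XV, beside a gene for meiotic telomere attachment, had folds of 2.52 and 2.79 in swc4Δ, with summits 136 and 540 bp from the NDJ1 start codon. COQ5/ZDS2 on XIII, COQ5 serving coenzyme Q synthesis, had 2.40 and 2.38 in swc4Δ, with summits 83 and 475 bp from the COQ5 start codon. GSM1/MEF2 had 2.96 and 2.26 in swc4Δ, YBR138C/ATG42 2.80 and 2.19, PAU20/YOL160W 2.60 and 2.3, and DPB11/SIP4 2.60 and 2.19. At DPB11/SIP4 the summits lay close together, 551 and 555 bp from the DPB11 start codon in swc4Δ. DPB11 codes for a replication initiation factor, and SIP4 for an activator of gluconeogenic genes. Chosen after its values were seen, SWC5/PBP2 on II (683091 to 683427), beside the gene of another SWR1 subunit, was gained at 2.21 and 1.74 in swc4Δ, the 25.7 and 5.2 percentiles of those lists.

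Of the 5 lost gaps, 2 lay beside α-specific genes. MF(ALPHA)2/YGL088W on VII (345154 to 345835), with a gene of the α-factor pheromone, had no summit in swc4Δ and folds of 3.64 and 3.16 in WT, the highest of the lost gaps. Its WT summits lay 534 and 562 bp from the MF(ALPHA)2 start codon and 149 and 121 bp from that of YGL088W. In swc4Δ replicate 1 a peak of fold 2.88, with its summit outside the gap, was found upstream of MF(ALPHA)2. SAG1/APL1 on X (444862 to 445922), the α-agglutinin gene beside a clathrin adaptor gene, had no summit in swc4Δ and 2.71 and 2.40 in WT. The other α-specific genes differed among themselves: MF(ALPHA)1 had a peak upstream in both WT libraries and in no swc4Δ library, while STE3 had one in all 4 libraries. The part of mating type in these calls was not tested. MIM1/LAG2 on XV, a mitochondrial outer membrane import gene with a tRNA gene in the gap, had 3.22 and 2.80 in WT. YOR365C/SCP1 on XV had 2.58 and 2.12 in WT and RRN6/FMT1 on II, RRN6 coding for an RNA polymerase I initiation factor, 2.46 and 2.20.

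A gap without a summit could still be reached by a peak with its summit elsewhere. At 3 of the 20 gained gaps, PAC10/YGR079W, RPN8/GPN2 and FAR8/RSF1, a WT peak reached into the gap, from both WT libraries at the first pair of gaps and from 1 at FAR8/RSF1. At 3 of the 5 lost gaps, MF(ALPHA)2/YGL088W, MIM1/LAG2 and RRN6/FMT1, peaks of both swc4Δ libraries did so. The remaining 17 gained gaps were touched by no WT peak, and SAG1/APL1 and YOR365C/SCP1 by no swc4Δ peak.

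**Figure D4:**
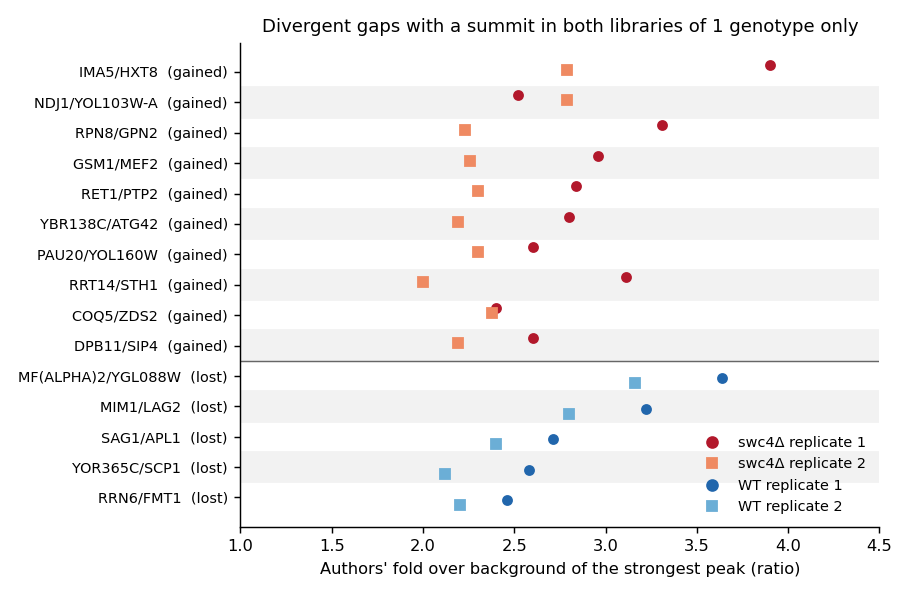
Authors' fold over background of the strongest peak (x axis, ratio) in the 10 highest-ranked gained and the 5 lost divergent gaps; each point is 1 library and a missing point means no summit there. The gained gaps run from 2.00 to 3.90 in swc4Δ and the lost ones from 2.12 to 3.64 in WT.

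Genes beside the gaps were grouped by 8 lists chosen with earlier results of these data known. Cytosolic ribosomal protein genes, which code for the 80S ribosome and are highly expressed in growing cells, flanked 39 divergent gaps. A summit lay in 35 and 34 of them in swc4Δ and in 35 and 34 in WT, and 34 (87.2%) had one in all 4 libraries, against 35.5% of all divergent gaps. Their gaps were longer, with a median of 719 bp, and of all 136 divergent gaps of 600 to 800 bp 50.0% had a summit in all 4 libraries. None was gained or lost, where 2.54% and 0.636% of all divergent gaps were, so 39 gaps are too few to show a difference. In 4 pairs such a gene lay on both sides. RPL13B/RPS16A on XIII (551208 to 551927) had 6.03 and 4.72 in swc4Δ and 4.53 and 4.36 in WT. RPL24A/RPL30 on VII (437935 to 439090) had 5.95 and 3.77 in swc4Δ and 4.15 and 4.00 in WT. RPS15/RPP2A on XV had 4.93 and 3.70 in swc4Δ and 3.52 and 2.92 in WT, and RPS22A/RPL39 on X had 4.77 and 3.06 in swc4Δ and 3.64 and 3.08 in WT. The 4 gaps with no summit in any library, YPL080C/RPL21B, RPS28A/GLN4, RPS30B/FYV12 and RPL20A/YMR242W-A, were 76 to 295 bp long. RRP5/RPS10B, the remaining one, had a summit in replicate 1 of each genotype.

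Mitochondrial ribosomal protein genes, whose products translate mitochondrial messages, flanked 15 divergent gaps with a median of 372 bp. Of all 241 divergent gaps of 200 to 400 bp 10.8% had a summit in all 4 libraries, and of all divergent gaps 35.5%. A summit lay in 8 and 4 of the 15 in swc4Δ and 6 and 4 in WT. In all libraries 4 of the 15 (26.7%) had one. Besides RSM7/YJR115W these were MRPS17/GCV2 on XIII (folds 3.98 and 2.94 in swc4Δ, 3.35 and 2.80 in WT), MRPL8/COA3 and AIM25/RSM26 on X.

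Proteasome genes flanked 13 gaps, with a summit in 12 and 8 in swc4Δ and in 10 and 6 in WT. In 5 of them (38.5%) all 4 libraries had one, against 35.5% of all divergent gaps. Their median length was 401 bp, and of all 147 divergent gaps of 400 to 600 bp 38.8% had a summit in all 4. RPL11A/PRE2 on XVI (731749 to 732348) joins this list to the ribosomal one. Its folds were 5.83 and 4.38 in swc4Δ and 4.28 and 3.72 in WT, and its summit stayed 330 and 331 bp from the RPL11A start codon in swc4Δ and 331 and 333 bp in WT. FUI1/PRE7 had 4.97 and 4.38 in swc4Δ and 3.69 and 3.48 in WT, and SCL1/MPO1 had 2.99 and 2.34 in swc4Δ and 2.97 and 2.68 in WT. RPN8/GPN2 was the gained gap of this list, and of all divergent gaps 2.54% were gained.

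The divergent histone pairs of chromosome II were open in all 4 libraries, as were 50.0% of all 136 divergent gaps of 600 to 800 bp. HTA2/HTB2 (235793 to 236491), the genes of histones H2A and H2B, had folds of 4.53 and 3.51 in swc4Δ and 2.84 and 2.92 in WT. Their summits lay 275 and 283 bp from the HTA2 start codon in swc4Δ and 273 and 280 bp in WT. HHF1/HHT1 (255685 to 256330), for histones H4 and H3, had 3.39 and 3.21 in swc4Δ and 2.54 and 2.44 in WT. Its summits were less fixed, at 353 and 345 bp from the HHF1 start codon in swc4Δ and at 471 and 241 bp in WT.

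GAL10/GAL1 on II (278353 to 279020), the divergent promoter of galactose use, had a summit in swc4Δ replicate 1, with a fold of 3.59, and in no other library. The other galactose-named gap, SPE2/GAL11, concerns a Mediator subunit gene and was open in all 4. Of 4 gaps by maltose genes none was open in every library, against 35.5% of all divergent gaps. The gaps YBR298C-A/MAL32 (94 bp) and TYC1/MAL33 (280 bp) had no summit in any library. Of all divergent gaps up to 200 bp 0% were open in all 4 libraries, and of those of 200 to 400 bp 10.8%. MAL11/MAL12 on VII, a maltose permease gene beside a maltase gene, had a summit in swc4Δ replicate 1 (fold 2.56) and in no other library, and IMA1/MAL13 in both swc4Δ libraries (3.82 and 2.76) and in WT replicate 2 (2.20).

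Cyclin genes flanked 5 gaps, 4 of them (80.0%) open in all libraries, against 35.5% of all divergent gaps. These gaps were long, with a median of 1110 bp. Of all 105 divergent gaps of 800 to 1200 bp 56.2% were open in all 4 libraries. CLN2/BBP1 on XVI, with a G1 cyclin gene, had 3.90 and 2.94 in swc4Δ and 3.13 and 2.92 in WT, and its summit lay near the centre of the 1110 bp gap. CLB5/THI22 had 3.55 and 2.45 in swc4Δ and 3.05 and 2.52 in WT, and MMF1/PCL7 had 3.86 and 3.36 in swc4Δ and 3.22 and 3.64 in WT. Of 5 gaps by heat shock and chaperone genes, with a median of 1016 bp, PIR5/HSP150 and HSP82/YAR1 (40.0%) were open in all 4 libraries. At HSP82, the gene of the Hsp90 chaperone, folds were 2.76 and 2.26 in swc4Δ and 2.41 and 2.04 in WT. HSP10/MCO10 had a summit in swc4Δ replicate 1 and in no other library (fold 2.21), and ERR2/HSP32 on XVI and HSP33/ERR1 on XV in none.

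**Figure D5:**
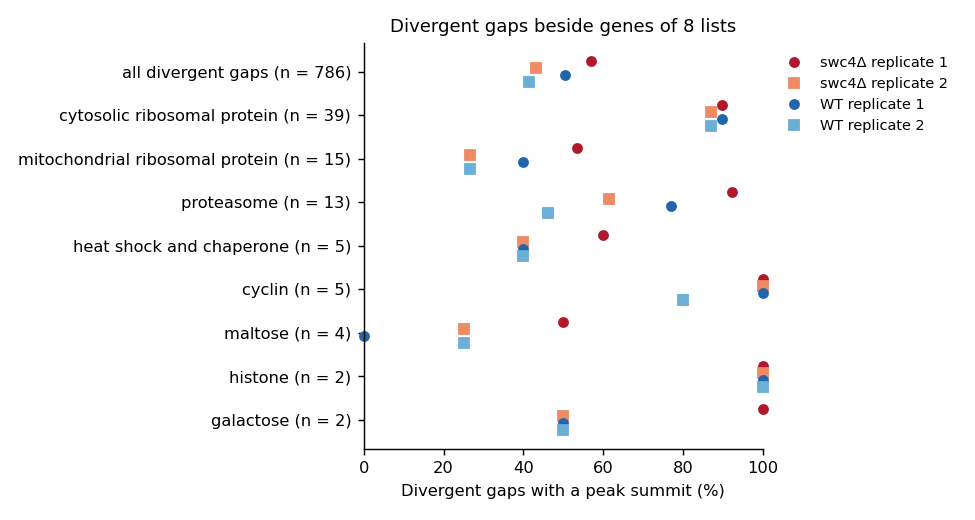
Share of divergent gaps with a summit (x axis, %) for all divergent gaps and for those beside genes of 8 lists (n is the number of gaps); each point is 1 library. Cytosolic ribosomal protein gaps sit at 34 to 35 of 39 in every library, and lists with 5 or fewer gaps rest on few places.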

How the data were processed

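Per the submitters' processing notes, the build was sacCer3 and the tools included deepTools 1.5.11, SAMtools 1.4, Picard 2.18.7, Bowtie2 2.3.1 and Trim Galore 0.5.0. What each did is not stated. Which program called the peaks, under which settings, and whether Tn5 offsets were applied is not given in the sources used here. The authors deposited 1 peak list per library, with a fold enrichment (a ratio), a −log10 p, a −log10 q, a whole-number score and a summit for each peak. They also deposited 1 list per genotype with a score per region, whose pooling was not given. The genotype of these lists was read from a name code shared with the per-library lists.

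All folds fell on evenly spaced steps (100% of peaks), and a Poisson test with 1 background per library returned the deposited −log10 p to within 0.000157, so 1 step was taken as 1 fragment. The number of reads per library is unknown.

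Gaps lay between neighbouring genes among 6002 nuclear protein-coding genes listed by RefSeq for R64 (the same assembly as sacCer3), and strand came from the systematic name. Of these gene spans 96.4% were a multiple of 3 bp long, so their ends were taken as start and stop codons. Coordinates are sacCer3, counted from 1. Summits inside tRNA genes were left out (7 and 6 in divergent gaps in swc4Δ, 5 and 3 in WT).

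Genotypes were compared on per-library values with exact permutation tests, and divergent with tandem gaps by an exact sign-flip test over libraries. Counts of gained and lost gaps had no test. The named gaps were the 10 gained and 10 lost with the highest mean fold percentile, the 10 highest, 5 widest and 5 narrowest among gaps open in all libraries, the 5 longest without a summit, up to 6 with several summits and up to 4 per list. Members, lists and tests were chosen with earlier results of these data known. Alternatives were a stricter q, equal list lengths, overlap in place of summits, gap length, all chromosomes, gaps without noncoding genes, each library left out and a replicate block. Assignment was tested on simulated data (Python 3.11.15, NumPy 2.4.6, pandas 2.3.3, SciPy 1.17.1).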

Additional observations from a re-analysis of the deposited data

How the results depend on the processing

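The excess of divergent over tandem gaps in share, width and fold percentile kept its direction in all settings run, at 13.8 to 20.1 points, 46.6 to 81.5 bp and 4.22 to 8.98 points. The difference between genotypes did not hold its direction for the other measures. The share of divergent gaps with a summit reversed to -2.74 points when swc4Δ replicate 1 was left out and to -0.318 points when WT replicate 2 was, and the number of peaks to -17.5 without swc4Δ replicate 1. The genotype difference in the divergent excess over tandem kept its direction in all settings, at 0.219 to 2.45 points, the highest with overlap in place of summits. With each library left out in turn the share ran up to 11.1 points, the number of peaks up to 110, the nearer distance up to 19.2 bp and the width from -30.5 to -19 bp. The difference in width became 0.250 bp with equal numbers of peaks and 29.8 bp over all 16 chromosomes. The distance to the nearer start codon became -1.50 bp in gaps of 200 to 800 bp, -9.25 bp over all chromosomes, -6 bp without swc4Δ replicate 2 and -7.75 bp without WT replicate 1. Over all 16 chromosomes 83 gaps were gained and 7 lost. That set of gaps is larger, so these counts do not compare with those of the 7 chromosomes. With equal numbers of peaks 14 gaps were lost. With 1 library left out 23 to 71 gaps were gained and 5 to 33 lost. Leaving out a library loosens the rule of these calls, so their counts can only stay or rise. The cause of the other changes was not tested. Replicate numbers shared by the genotypes gave a correlation of 0.11 in the deviations of log2 fold over 279 gaps, and nothing in the labels says that they pair the libraries. A replicate block adds up, over the replicate numbers, the gaps open in 1 genotype and not the other within a number. It gave 138 gained and 72 lost calls. A gap can count under both numbers, so these are not counts of distinct gaps. Under the block the other differences kept their values (4.20 points, 46 peaks, -24.8 bp, 5.75 bp and 1.16 points). Each had p = 0.5, the smallest that exact sign flips of 2 pairs allow. Peaks just above the authors' threshold rest on 38 to 43 fragments among the members, so an absent summit may lie just under it.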

Other observations

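Divergent gaps that hold a tRNA gene were open more often than those with no noncoding gene, and they were longer. Of 44 such gaps, with a median of 1310 bp, 79.5% and 63.6% held a summit outside the tRNA gene in swc4Δ and 70.5% and 59.1% in WT. Length was not matched, and of all 65 divergent gaps of 1200 to 2000 bp 81.5% to 92.3% held a summit across libraries. Of the 725 gaps without any noncoding gene, with a median of 488 bp, 55.2% and 41.4% held one in swc4Δ and 49.1% and 39.9% in WT. The genotypes overlapped in gaps with a tRNA gene and in gaps without any noncoding gene. Of 17 gaps with another noncoding gene and no tRNA gene, 13 and 11 held a summit in swc4Δ (76.5% and 64.7%). In WT 9 and 10 of them did (52.9% and 58.8%). These shares did not overlap (no test), but they rest on few gaps. Over all 786 divergent gaps the genotypes overlapped, at 57.0% and 43.1% in swc4Δ and 50.4% and 41.3% in WT.

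The authors' genotype lists, 1 per genotype by their name code and without replicates, were set against the same gaps. A region of the list covered at least 50 bp of 474 divergent gaps (60.3%) in swc4Δ and of 243 (30.9%) in WT, and of 544 tandem gaps (38.9%) in swc4Δ and 198 (14.2%) in WT. The lists are of unequal length, 2602 regions for swc4Δ against 1002 for WT. Of the 279 gaps open in all 4 libraries, the swc4Δ list touched 97.5% and the WT list 70.6%. Of the 20 gained gaps the swc4Δ list touched 16 and the WT list 3, and of the 5 lost gaps 4 and 3.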
